A study of Naumovozyma castellii with 14 samples.

Results

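Naumovozyma castellii cells that lack Upf1 were compared with wild-type cells, both without cycloheximide, by strand-specific RNA-seq of total RNA. The comparison takes every distinct feature of the deposited table, 8343 features from 8602 lines, after dropping the 259 lines that repeat the chromosome, start, end and strand of an earlier line. It uses 8 of the 14 libraries of the series for its values. The upf1 group has 4 libraries of strain YAM2890, of genotype MATalpha ura3-1 ho upf1::kanMX6, in which a kanMX6 cassette disrupts UPF1. The WT group has 4 libraries of strain YAM2478, of genotype MATalpha ura3-1 ho. Both strains thus carry the same mating type, the same ura3 marker and a loss of HO, and were grown in rich medium to mid-log phase with no drug. Each group is a single strain name, so the numbers of independent mutant or wild-type lines behind it are not given, and p-values measure the spread between the libraries.

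Upf1 is an RNA helicase that drives nonsense-mediated decay (NMD). This pathway degrades RNAs on which a ribosome stops at a codon that the cell treats as premature. In budding yeast such RNAs are decapped and then digested from the 5′ end in the cytoplasm, and they include mRNAs with upstream reading frames, retained introns or frameshift sites, and non-coding RNAs that meet ribosomes. Among non-coding classes, cryptic unstable transcripts (CUTs) are removed mainly by the nuclear exosome and Xrn1-sensitive unstable transcripts (XUTs) by the cytoplasmic 5′ exonuclease Xrn1, while stable unannotated transcripts (SUTs) are seen without removing either. Roles given below for single genes are those known in Saccharomyces cerevisiae.

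Expression is given as the deposited normalised density: reads per nucleotide of the feature, after scaling of the library by a size factor. Densities allow levels to be compared between features of unequal length. Recovered reads came to between 8022819 and 16411146 in the upf1 libraries and between 7895089 and 11172687 in the WT libraries. Two-sided tests used limma on log2(density + 0.02) with Benjamini-Hochberg adjustment over the 7518 features whose mean density reached 0.02, and a feature was called at an adjusted p under 0.05. The mean density behind this filter is taken over all 14 libraries, which include the upf1 libraries and others without Upf1 or with cycloheximide. A low feature that is high in those libraries passes more readily, which favours rises among the tested CUTs and XUTs. The 825 features left out as low included 427 CUTs, 197 XUTs, 153 mRNAs and 29 SUTs, so the tested CUTs and XUTs are the better covered ones over the series. Each fold change is upf1 over WT on the log2(density + 0.02) scale, which understates the change of low features. It is given under the deposited scaling, which matches the snoRNAs between libraries, and relative to the mRNAs, after dividing each library by its median ratio over 5480 mRNAs.

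NAM7, which encodes Upf1, had no read in any of the 4 upf1 libraries, against 1601, 1279, 1074 and 1474 reads in the WT libraries. With a floor of 3 reads over the upf1 group, its density was at least 2216-fold lower. Both groups carried alpha-cell transcripts: STE3, the receptor for a-factor, had 1556 to 2658 reads in upf1 libraries and 1275 to 1645 in WT libraries, and SAG1, the alpha-agglutinin, had 4315 to 6288 in upf1 libraries and 2959 to 5831 in WT libraries. Of the markers of a cells that were found, STE2, the receptor for alpha-factor, had a density of 0.192 to 0.233 in upf1 libraries and 0.0367 to 0.0737 in WT libraries. STE6 had 0.258 to 0.347 in upf1 libraries and 0.131 to 0.174 in WT libraries, BAR1 had 0.0821 to 0.103 in upf1 libraries and 0.0247 to 0.0390 in WT libraries, and AGA2 had at most 5 reads in an upf1 library and at most 11 in a WT library. Of 4 a-cell markers, 3 were thus denser in every upf1 library than in any WT library, though low beside STE3, and their part in the results was not tested. MATALPHA1, MF(ALPHA)1, MFA1 and MFA2 were not found by name. Alpha genes changed too: STE3 had a log2 fold change of 0.39 (limma, adjusted p = 0.035) and 0.07 with no call relative to the mRNAs. SAG1 had 0.30 with no call. HMLALPHA1 was higher under both scalings, at 0.85 (limma, adjusted p = 0.00051) and 0.56. HMLALPHA2 had 0.07 with no call, and was called lower relative to the mRNAs, at −0.24. The libraries fell into sets by replicate number: replicates 1 and 2 of both groups deviated from their group means together and apart from replicates 3 and 4, and what separates them is not in the labels.

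Without Upf1 the RNAs that changed were almost all higher under the deposited scaling: 3042 of 7518 tested features (40.5%) were called higher and 44 (0.585%) lower. The count of lower features was 85 in a fit with the replicate number as a block, 22 in the 8 libraries alone and 73 without upf1 replicate 3. Measured relative to the mRNAs, 2250 (29.9%) were higher and 1791 (23.8%) lower. The same 2247 features were higher under both scalings, which is 29.9% of those tested, and the same 44 were lower under both. No feature was higher under one scaling and lower under the other. The rescaling took away the call of 795 features that were higher and gave a lower call to 1747 that had none. The median log2 fold change over all tested features was 0.25 under the deposited scaling and −0.03 relative to the mRNAs. Within replicates 1 and 2 alone the deposited scaling gave 2818 higher and 330 lower, and within replicates 3 and 4 alone it gave 2854 higher and 70 lower. Relative to the mRNAs these were 2456 higher and 2198 lower, and 1607 higher and 907 lower. Centring each library on the median of all tested features, another scaling, gave 1761 higher and 3426 lower. Fitting the 8 libraries alone, with the mRNA factors also taken over them, gave 1947 higher and 998 lower.

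Most large changes were rises. At least 2-fold higher and called were 1167 features (15.5%) under the deposited scaling and 913 (12.1%) relative to the mRNAs. At least 2-fold lower and called were 2 features (0.0266%) and 7 features (0.0931%), counts that include NAM7 itself. These small counts moved with single libraries. Under the deposited scaling the count was 6 without WT replicate 4, 5 without WT replicate 1 and 1 without upf1 replicate 3 or 4, and it was 1 with the replicate number as a block. Relative to the mRNAs it was 21 without WT replicate 4 and 12 without upf1 replicate 1, 3 or 4. Replicates 1 and 2 alone gave 17 and 32 features at least 2-fold lower, and replicates 3 and 4 alone 10 and 18. With a pseudocount of 0.1 the features at least 2-fold higher were 530 and 420. The upf1 and WT libraries did not overlap under either scaling for 2021 features (26.9%).

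XUTs were the class that rose most often. Of 768 tested XUTs, 594 (77.3%) were higher in upf1 under the deposited scaling and 1 was lower. The median log2 fold change was 0.85, against 0.25 over all tested features. On the scale of the mRNAs 539 (70.2%) were higher and 11 lower, and the median was 0.77. At least 2-fold higher were 309 XUTs (40.2%). The pseudocount sets these medians in part: under the deposited scaling the XUT median was 0.29 with a pseudocount of 0.1, 1.38 with 0.005, and 1.68 by voom on the recovered reads. It was 0.70 with no filter on low values. In the densities themselves, the median XUT density averaged 0.0444 ± 0.0039 in upf1 libraries and 0.0149 ± 0.0015 in WT libraries (SD, n = 4 each), a ratio of 2.99. The lowest upf1 library, at 0.0411, was above the highest WT library, at 0.0166. XUTs took 1.24% ± 0.0601 of the recovered reads in upf1 libraries and 0.683% ± 0.0349 in WT libraries (SD, n = 4 each), again with no overlap.

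CUTs came next, with 438 of 852 tested (51.4%) higher and 1 lower. Their median log2 fold change was 0.51, against 0.18 with a pseudocount of 0.1, 0.79 with 0.005 and 0.90 by voom. It was 0.29 with no filter on low values. With the mRNA scaling 360 (42.3%) were higher and 20 lower, and the median was 0.38. Their median density averaged 0.0379 ± 0.0037 in upf1 libraries and 0.0202 ± 0.0017 in WT libraries (SD, n = 4 each), a ratio of 1.87, and the groups did not overlap. Many CUTs and XUTs share sequence, since 680 of them overlap a member of the other class on the same strand. An overlap of any length was counted, and the share of the length that overlaps was not measured. Among the tested CUTs, 330 overlapped a XUT, and 79.7% of these were higher with a median of 0.90. Of the 522 CUTs that overlapped no XUT, 33.5% were higher, a share below the 40.5% over all features. Their median change of 0.32 was above the 0.25 over all features, and relative to the mRNAs it was 0.18 against −0.03. They had a median of 10.1 reads a library, against 276 over all features, and shares were not compared at matched depth. The share of 33.5% became 21.6% with no filter on low values and 76.6% among those with a mean density of at least 0.1. The mean behind that filter includes the upf1 libraries, so a higher limit also keeps more of the CUTs that are high there. XUTs showed no such split: 79.1% of the 301 that overlapped a CUT and 76.2% of the 467 that did not were higher. The single CUT and the single XUT called lower, CUT0315 and XUT0250, overlap each other, and their log2 fold changes were −0.37 and −0.36. They were chosen after their values were seen.

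SUTs stood apart from the other 2 non-coding classes. Of 117 tested SUTs, 16 (13.7%) were higher under the deposited scaling, none of them 2-fold, with a median of 0.06. The count of higher SUTs was 8 without WT replicate 2 or 3, 9 without upf1 replicate 4 and 10 in replicates 1 and 2 alone. None was lower by limma, against 4 at an unadjusted p under 0.05 and 1 by voom. Leaving out a library gave 3 lower without upf1 replicate 2, 2 without upf1 replicate 3 or WT replicate 2, and 1 without upf1 replicate 4 or WT replicate 1 or 3. There were 3 with the replicate number as a block, 11 in replicates 1 and 2 alone and 6 in replicates 3 and 4 alone. With the mRNA scaling 6 were higher and 28 lower, around a median of −0.21, and in replicates 3 and 4 alone 2 were higher and 15 lower. Their median density was 0.0484 to 0.0562 in upf1 libraries and 0.0418 to 0.050 in WT libraries, ranges that overlap, and their share of reads overlapped between the groups as well. The median tested SUT had 23.0 reads a library, and the median tested XUT had 20.9.

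The mRNAs lay between. Of 5446 tested mRNAs, 1970 (36.2%) were higher and 36 lower under the deposited scaling, the median being 0.20 on the log2 scale, and 648 (11.9%) were at least 2-fold higher. After scaling to the mRNAs 1334 (24.5%) were higher and 1686 (31.0%) lower, around a median of −0.10. That count of lower mRNAs was 829 in replicates 3 and 4 alone and 949 in a fit of the 8 libraries alone with mRNA factors from them. The count of 36 lower mRNAs under the deposited scaling was 55 in a fit with the replicate number as a block, 20 in the 8 libraries alone, and 269 in replicates 1 and 2 against 17 in replicates 3 and 4. It was 60 without upf1 replicate 3, 23 without upf1 replicate 2 and 19 without WT replicate 1. The median mRNA density averaged 0.378 ± 0.0464 in upf1 libraries and 0.268 ± 0.0263 in WT libraries (SD, n = 4 each), a ratio of 1.41, with no overlap. This ratio of class medians is not the median change of single mRNAs, which was 0.20 on the log2 scale. Relative to the mRNAs the ratio of class medians was 1.12, although the median log2 fold change was −0.10. The share of reads taken by mRNAs overlapped between the groups, at 84.0% ± 0.579 in upf1 libraries and 83.5% ± 0.560 in WT libraries (SD, n = 4 each).

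The short structured RNAs changed little under the deposited scaling. None of the 37 snoRNAs was called by limma in either direction, 0 passed an unadjusted p of 0.05 and 0 were called by voom. Their median of −0.01 is fixed by a scaling on snoRNAs. With the mRNA scaling 21 of them were lower, around a median of −0.34, and 2 of the 3 snRNAs were lower. Of 283 tested tRNA features 24 were higher and 6 lower under the deposited scaling, and 11 were higher and 23 lower relative to the mRNAs. tRNA features had a median of 7.38 reads a library. None of the 12 rRNA features was called by limma under either scaling (0 at an unadjusted p under 0.05, 0 by voom), and their median log2 fold change was −1.03. Ribosomal RNA was depleted before sequencing. Its share of reads was 1.14%, 0.838%, 0.575% and 0.558% in upf1 replicates 1 to 4, against 3.02%, 2.56%, 0.789% and 0.564% in WT replicates 1 to 4. The gap thus lay mostly in replicates 1 and 2. Some rRNA features also overlap each other, such as NCAS_RDN58-1 and ENSRNA049639856, so they are not separate observations.

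**Figure D1:**
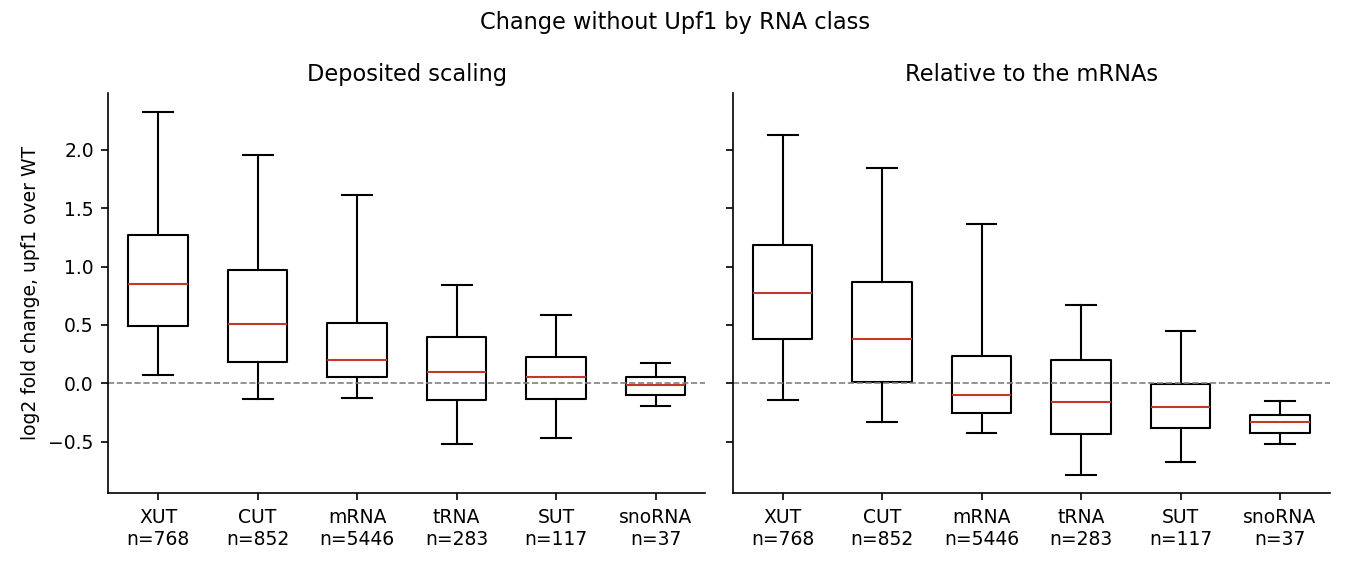
Log2 fold change of density, upf1 over WT, for the tested features of 6 RNA classes, under the deposited scaling (left) and relative to the mRNAs (right). Red lines are medians, boxes span the quartiles and whiskers the 5th to 95th percentile of features. XUTs have the highest median under both scalings (0.85 and 0.77), and the median of the mRNAs is above 0 on the left (0.20) and below it on the right (−0.10).

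Length divided the XUTs strongly. The share called higher under the deposited scaling was 48.7% of 76 XUTs under 300 nt (each length range includes its lower and not its upper limit), 69.4% of 252 at 300 to 600 nt, 82.2% of 213 at 600 to 1000 nt, 92.2% of 180 at 1000 to 2000 nt and 86.7% of 45 at 2000 to 4000 nt. Both XUTs of 4000 nt and over were higher. The median log2 fold change went the same way, with 0.55, 0.66, 0.89, 1.21 and 1.23 over the first 5 bins. Longer features collect more reads, with a median of 4.94 reads a library for XUTs under 300 nt and 75.4 at 1000 to 2000 nt. The share called was not tested at matched depth. The ratio of median densities, which uses no pseudocount and no test, was 2.74, 2.82, 3.37, 3.72 and 3.97 over the same bins. In every bin each upf1 library was above each WT library.

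The gradient was also present in every library of each group. It was measured on median log2(density + 0.02), as XUTs of at least 1000 nt minus XUTs under 600 nt. In upf1 libraries this excess was 1.06, 1.02, 1.19 and 1.28 in replicates 1 to 4. In WT libraries the excess was 0.48, 0.46, 0.46 and 0.52. On this scale long XUTs were denser than short ones in both strains, and by more in all 4 upf1 libraries. The pseudocount shrinks the excess most where densities are low, as in WT, so this contrast between the strains is overstated. Without a pseudocount, the upf1 over WT ratios of median densities still rose, from 2.82 at 300 to 600 nt to 3.72 at 1000 to 2000 nt. The difference of median log2 fold changes, long minus short, was 0.58 under the deposited scaling and 0.54 relative to the mRNAs. XUTs were then split into 3 classes of equal size by mean level over the 8 libraries. That mean includes the upf1 libraries, so a rise itself lifts a feature towards a higher class. In the middle class the share higher was 48.3%, 75%, 90.1%, 94.9% and 92.3% over the 5 bins below 4000 nt. In the highest class the medians were 0.85 at 300 to 600 nt, 1.15 at 600 to 1000 nt, 1.71 at 1000 to 2000 nt and 1.42 at 2000 to 4000 nt. In the lowest class they were 0.58, 0.63, 0.65 and 0.78 over the 4 bins below 2000 nt. The rise with length below 2000 nt was thus seen within each level. XUTs that overlap no CUT had medians of 0.57, 0.70, 0.85, 1.33 and 1.23 over the 5 bins below 4000 nt.

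CUTs showed a gradient in the share called, with 42.4%, 46.8%, 56.5%, 73.5% and 92.9% higher over the same 5 bins, the last of them 13 of 14 CUTs. Their medians were 0.51, 0.44, 0.55, 0.65 and 1.24, with no rise between the first 3 bins. Ratios of median densities were 2.05, 1.78, 1.87, 2.50 and 3.65. Per library, CUTs of at least 1000 nt exceeded those under 600 nt in median log2(density + 0.02). The excess was 0.71 to 0.81 in upf1 libraries and 0.33 to 0.39 in WT libraries, where the pseudocount shrinks it more. The long minus short difference of median fold changes was 0.44 under the deposited scaling. It was 0.0808 among CUTs with a mean density of at least 0.1. Within the highest class by level, medians were 1.03, 0.81, 0.98 and 1.00 over the 4 bins below 2000 nt, with no trend. CUTs that overlap no XUT had medians of 0.42, 0.29, 0.31 and 0.40 over those bins, again with no steady rise.

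In mRNAs the share called higher went the other way along length. It was 35.6% of 149 mRNAs under 300 nt, 41.1% of 623 at 300 to 600 nt, 40.2% of 1250 at 600 to 1000 nt, 37.7% of 2180 at 1000 to 2000 nt, 28.0% of 1076 at 2000 to 4000 nt and 21.4% of 168 at 4000 nt or more. Their length is the coding length with any intron, since 97.6% of the lengths are divisible by 3, so it holds no untranslated region. Medians were 0.24, 0.25, 0.21, 0.21, 0.16 and 0.12. The share called lower relative to the mRNAs was 24.2%, 23.6%, 27.8%, 29.9%, 38.8% and 51.2%. The longest mRNAs had a median of 1459 reads a library, and those under 300 nt had 237. The longer mRNAs, of 2000 nt and over, lay below those under 1000 nt in median log2(density + 0.02). The difference was −0.98, −0.98, −0.94 and −0.95 in upf1 replicates 1 to 4. It was −0.75, −0.82, −0.88 and −0.83 in WT replicates 1 to 4. The groups did not overlap in this measure, and the difference between their fold changes was small, at −0.07 under either scaling. It was −0.12 in replicates 1 and 2 alone and −0.04 in replicates 3 and 4 alone under the deposited scaling.

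The share also went down with level in the mRNAs. Over 3 classes of equal size by mean level, 46.5% of the lowest, 41.6% of the middle and 20.5% of the highest were higher under the deposited scaling. The shares lower relative to the mRNAs were 16.9%, 25.0% and 51.0%. Within the highest class the share higher was 32.3% under 300 nt, 28.6%, 21.4%, 18.8% and 7.07% over the next 4 bins, and 5.26%, or 2 of 38 mRNAs, at 4000 nt or more. Within the middle class it was 58.4% at 300 to 600 nt and 20.6% at 4000 nt or more, and within the lowest class 58.0% at 600 to 1000 nt and 32.3% at 4000 nt or more. From the lowest to the highest class, 68.0%, 81.6% and 82.4% of XUTs and 31.7%, 48.6% and 73.9% of CUTs were higher, an order that the inclusion of the upf1 libraries in the level favours. At 1000 to 2000 nt the classes were thus ordered with 92.2% of XUTs, 73.5% of CUTs, 37.7% of mRNAs and 20.0% of 15 SUTs higher, although the median mRNA there had 405 reads a library and the median XUT 75.4.

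**Figure D2:**
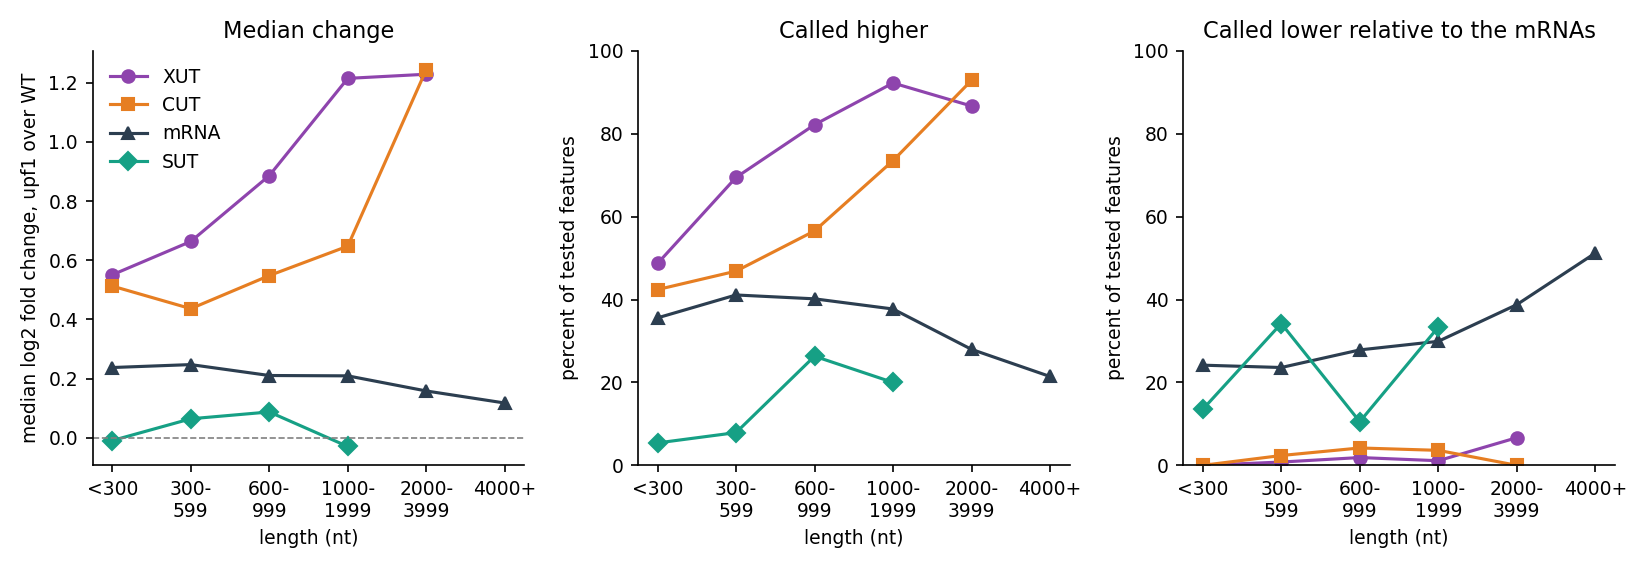
Median log2 fold change, upf1 over WT (left), and percent of tested features called higher (middle) under the deposited scaling, and percent called lower relative to the mRNAs (right), by length bin. Points are shown for bins with at least 10 tested features. XUTs reach 92.2% higher at 1000 to 2000 nt and 86.7% at 2000 to 4000 nt, and CUTs 92.9% at 2000 to 4000 nt, whereas mRNAs reach 21.4% higher and 51.2% lower at 4000 nt or more.

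**Figure D3:**
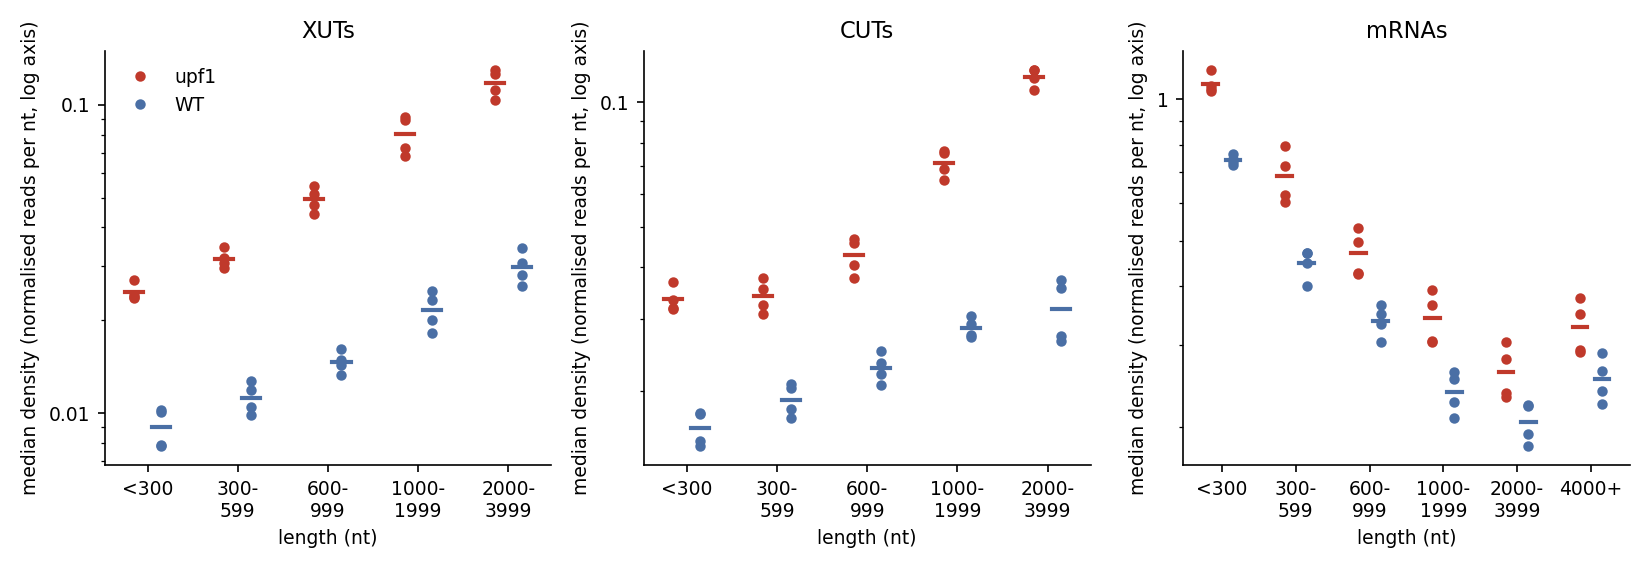
Median density (normalised reads per nt, log axis) of XUTs, CUTs and mRNAs in each length bin, with a point per library and a bar at the mean of the 4 upf1 (red, left) and 4 WT (blue, right) libraries. The gap between the groups widens with length for XUTs, from a ratio of 2.74 under 300 nt to 3.97 at 2000 to 4000 nt, while for mRNAs the ratios were 1.45, 1.54, 1.39, 1.44, 1.28 and 1.29 over the 6 bins.

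The mRNAs that carry a gene symbol from RefSeq rose less often than those that have a locus tag alone. Of 1021 tested mRNAs with a locus tag alone 53.8% were higher, with a median of 0.40, and of 4425 with a symbol 32.1% were higher, with a median of 0.18. With the mRNA scaling the shares were 42.3% and 20.4%. At least 2-fold higher were 25.6% and 8.75%. The order was the same in every length bin, from 37.0% against 35.0% under 300 nt to 58.6% against 37.3% at 300 to 600 nt and 43.8% against 19.1% at 4000 nt or more. Those with a locus tag alone also had fewer reads, with a median of 305 a library against 442.5. They were not compared at matched level, and low mRNAs rose more often than others, as given above. By chromosome the share of all features called higher lay between 38.8% and 43.6%, apart from chromosome 10 with 149 of 298 and the mitochondrial genome with none of 30 by limma (1 at an unadjusted p under 0.05, 0 by voom).

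Single features are named by a rule that asks for a call and for libraries that do not overlap under both scalings, and for a mean in the higher group of at least the class median. That left 1113 higher and 12 lower features, of which the largest in each length bin and class are described. Coordinates are those of the deposited table, and no source used here names its genome build.

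Among the shortest mRNAs, under 300 nt, SLO1, a partner of the Golgi GTPase Arl3, rose most (chromosome 2, 909266 to 909487, minus strand, 222 nt). Its density was 3.94, 3.86, 5.08 and 4.5 in upf1 replicates 1 to 4, against 0.323, 0.246, 0.325 and 0.406 in WT replicates 1 to 4. Every upf1 library was far above every WT library, and the log2 fold change was 3.67 ± 0.13 (SE; limma, Benjamini-Hochberg adjusted p = 1.0e-12), or 3.37 relative to the mRNAs. NCAS_0D01620 (204 nt) had 3.14 ± 0.469 in upf1 and 0.302 ± 0.0111 in WT libraries (SD, n = 4 each). NCAS_0B07140, of 105 nt, had 1.54 ± 0.234 in upf1 and 0.182 ± 0.0831 in WT libraries.

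At 300 to 600 nt the largest rise was that of RMD6, a gene needed for meiotic nuclear division (chromosome 10, 104201 to 104785, plus strand, 585 nt). It had 3.45, 3.37, 5.16 and 4.90 in upf1 replicates 1 to 4, against 0.191, 0.162, 0.245 and 0.216 in WT replicates 1 to 4. The upf1 libraries were all far higher, with replicates 3 and 4 above 1 and 2 in both groups, and the log2 fold change was 4.23 ± 0.15 (SE; limma, adjusted p = 7.9e-13) and 3.95 relative to the mRNAs. TAH1, a cochaperone of Hsp90, rose by 3.68, and MAK31, a subunit of the NatC acetyltransferase, by 3.62 on the log2 scale.

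At 600 to 1000 nt ISC10, a gene of spore formation (chromosome 2, 908145 to 908960, minus strand, 816 nt), had 2.28, 2.31, 2.98 and 2.66 in upf1 replicates 1 to 4, against 0.239, 0.209, 0.182 and 0.240 in WT replicates 1 to 4. The groups lay far apart, with a log2 fold change of 3.44 ± 0.11 (SE; limma, adjusted p = 5.0e-13). ISC10 lies just downstream of SLO1 on the same strand, so the 2 rises come from neighbouring genes. TAH1 has such a neighbour too: TVS1 (1731 nt) starts downstream of it on the same strand and rose by 3.34 on the log2 scale, with 1.80 ± 0.171 in upf1 and 0.159 ± 0.0067 in WT libraries (SD, n = 4 each). Whether transcripts run across these pairs was not tested. NCAS_0H03640 (648 nt) rose by 3.23.

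At 1000 to 2000 nt NCAS_0J00100 rose most (chromosome 10, 30 to 1943, plus strand, 1914 nt, at the start of the chromosome's sequence). It had 1.29, 1.27, 1.72 and 1.5 in upf1 replicates 1 to 4, against 0.0987, 0.0808, 0.0706 and 0.0866 in WT replicates 1 to 4. Every upf1 library was far above every WT library, and the log2 fold change was 3.81 ± 0.12 (SE; limma, adjusted p = 3.6e-13). At 2000 to 4000 nt NCAS_0G02790 (3453 nt) had 1.5, 1.30, 1.87 and 2.06 in upf1 replicates 1 to 4, against 0.112, 0.101, 0.215 and 0.226 in WT replicates 1 to 4. Here both groups were higher in replicates 3 and 4, and the log2 fold change was 3.27 ± 0.22 (SE; limma, adjusted p = 2.7e-08). NCAS_0A10520 (2424 nt) rose by 2.96.

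Among mRNAs of 4000 nt and over the leading rise was smaller. FKS3, a relative of the glucan synthases that acts in the spore wall (5370 nt), had 0.386, 0.375, 0.490 and 0.425 in upf1 replicates 1 to 4, against 0.0780, 0.0615, 0.0468 and 0.0604 in WT replicates 1 to 4. All upf1 libraries were higher, with a log2 fold change of 2.43 ± 0.12 (SE; limma, adjusted p = 3.1e-11). DUR12, the urea amidolyase (5505 nt), rose by 2.34, and REV3, the catalytic subunit of DNA polymerase zeta (4422 nt), by 2.25.

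Apart from NAM7, the falls of mRNAs that the rule names were shallow. NCAS_0J00860 (450 nt, chromosome 10) had 4.02, 3.98, 5.03 and 4.91 in upf1 replicates 1 to 4, against 10.5, 9.52, 6.14 and 6.17 in WT replicates 1 to 4. The groups did not overlap, but the gap lay mostly in replicates 1 and 2. Its log2 fold change was −0.81 ± 0.17 (SE; limma, adjusted p = 0.00079) over all replicates and −0.31, with no call, in replicates 3 and 4 alone. CAR1, the arginase, had 0.565, 0.480, 0.476 and 0.615 in upf1 replicates 1 to 4, against 0.945, 0.761, 0.677 and 0.723 in WT replicates 1 to 4. Its libraries did not overlap either, and its log2 fold change of −0.52 lost its call in replicates 3 and 4 alone, at −0.36. NCAS_0B01090 behaved likewise, with −0.53 over all replicates and −0.26 there. NCAS_0G01570 (645 nt) fell by 0.68 on the log2 scale, with 0.263 ± 0.0268 in upf1 and 0.433 ± 0.0579 in WT libraries (SD, n = 4 each), and ICT1, a lysophosphatidic acid acyltransferase, fell by 0.43.

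A pair of genes of the mating pathway was among those lower, both chosen after their values were seen. FUS1, a membrane protein of cell fusion, had 19, 25, 14 and 11 reads in upf1 replicates 1 to 4, against 45, 41, 38 and 70 in WT replicates 1 to 4. Its density was 0.0111 ± 0.0014 in upf1 and 0.0378 ± 0.0127 in WT libraries (SD, n = 4 each), with no overlap and a log2 fold change of −0.87, which the pseudocount understates at this level (limma, adjusted p = 0.00022). FUS3, the MAP kinase of the pheromone pathway, had 0.487 ± 0.0684 in upf1 and 0.744 ± 0.171 in WT libraries. Its groups overlapped by a single pair of libraries, and its log2 fold change was −0.57 (limma, adjusted p = 0.0032).

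The leading XUT was XUT0541 (chromosome 4, 164323 to 166197, minus strand, 1875 nt). It had 0.473, 0.492, 0.667 and 0.612 in upf1 replicates 1 to 4, against 0.0456, 0.0418, 0.0321 and 0.0404 in WT replicates 1 to 4. The groups lay far apart, with a log2 fold change of 3.27 ± 0.12 (SE; limma, adjusted p = 1.5e-12) and 3.08 relative to the mRNAs. CUT0698 (chromosome 4, 164368 to 165570, minus strand) lies inside it, so its log2 fold change of 3.30 covers part of the same stretch again. The same holds for XUT0849 (chromosome 8, 22423 to 23328, minus strand), at 3.18, and CUT1114 inside it, at 3.21. XUT0758 (1132 nt) rose by 3.07. CUT0325 (721 nt, chromosome 10) had 147, 179, 93 and 64 reads in upf1 replicates 1 to 4, against 4, 4, 0 and 3 in WT replicates 1 to 4. It was close to undetected in WT, and its log2 fold change of 2.87 rests on the pseudocount in those libraries.

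The largest rises among SUTs and tRNAs were of another order. SUT089 (967 nt) had 0.147, 0.132, 0.134 and 0.145 in upf1 replicates 1 to 4, against 0.0687, 0.0597, 0.0553 and 0.0572 in WT replicates 1 to 4. Its groups did not overlap, with a log2 fold change of 0.99 (limma, adjusted p = 6.8e-07). SUT144 and SUT075, both of 363 nt, had 0.94 and 0.87, and relative to the mRNAs SUT144 was not called in replicates 3 and 4 alone, at 0.65. The tRNA feature NCAS_0Atrna8K had 1.18 ± 0.179 in upf1 and 0.603 ± 0.120 in WT libraries (SD, n = 4 each), a log2 fold change of 0.95.

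**Figure D4:**
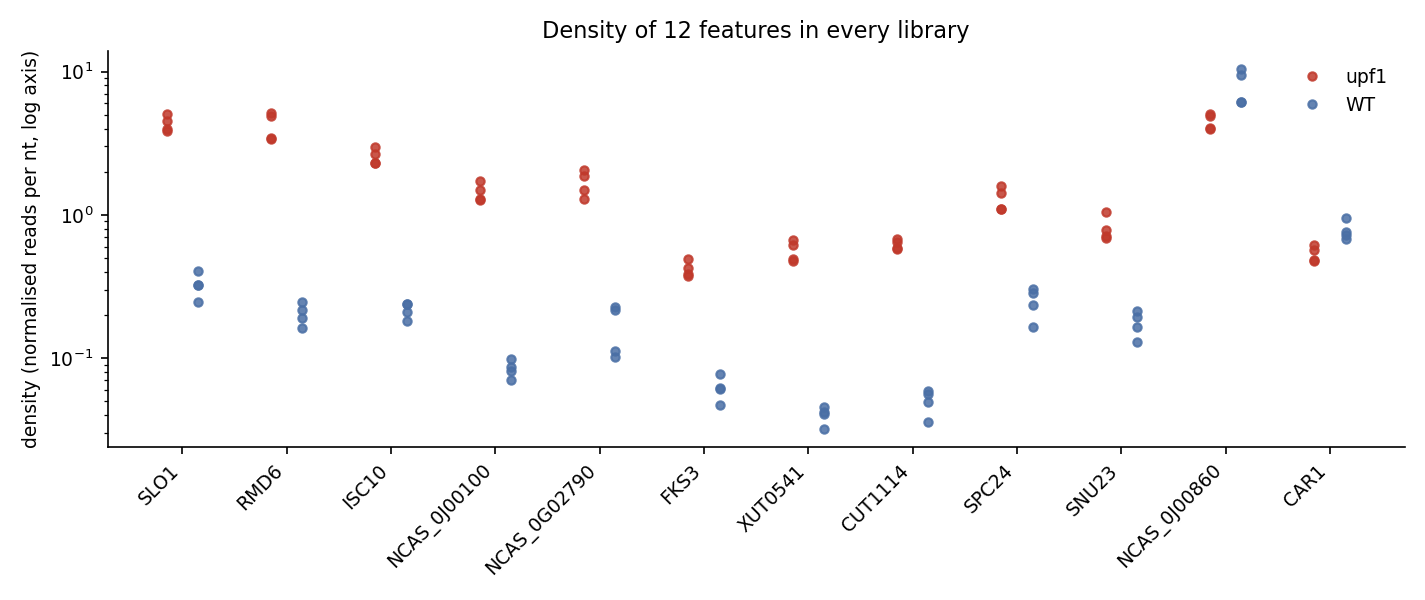
Density (normalised reads per nt, log axis) of 12 named features in the 4 upf1 libraries (red, left) and the 4 WT libraries (blue, right), with a point per library. For the first 10 features every upf1 library is far above every WT library, while NCAS_0J00860 and CAR1 lie lower in upf1 by small margins (log2 fold changes −0.81 and −0.52).

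Functional groups of mRNAs differed in how many of their members rose. The 26 lists used here were written with earlier results of these data known, and their counts are read against the shares of all tested mRNAs, which were 36.2% higher under the deposited scaling and 24.5% higher and 31.0% lower relative to the mRNAs. Meiosis and sporulation genes had the highest share of the lists with more than 6 tested members. Of 63 found, 48 passed the low filter, and 34 of these rose, around a median of 0.75. The mean behind that filter includes the libraries without Upf1, so it favours low members that are high there, and the share is of tested members only. The scaling to the mRNAs left 32 higher, around a median of 0.66. With a mean density of at least 0.1, where fewer are tested, 16 rose under either scaling, and 21 rose relative to the mRNAs in replicates 3 and 4 alone. RMD6 and ISC10 led the list, followed by REC107, which acts in the first steps of meiotic recombination. REC107 had 0.660 ± 0.0668 in upf1 and 0.0620 ± 0.0047 in WT libraries (SD, n = 4 each), a log2 fold change of 3.05. Most of these genes have low levels in cells that grow by mitosis, and low mRNAs rose more often than others, as given above. The only member called lower was SPO24, at −0.34 (limma, adjusted p = 0.044), chosen after its value was seen. That call was lost when upf1 replicate 1, 2 or 3 or WT replicate 1, 2 or 4 was left out, with values between −0.34 and −0.25.

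Lists of genome maintenance genes also had more rises than the mRNAs as a whole. Of 18 telomerase and telomere genes 12 rose, with a median of 0.54, and 10 rose relative to the mRNAs. The telomerase subunits led: EST1 had 0.469 ± 0.078 in upf1 and 0.0755 ± 0.0102 in WT libraries (SD, n = 4 each), a log2 fold change of 2.35. EST3 followed with 2.17 and EST2, the reverse transcriptase, with 2.10. Of 57 DNA repair and recombination genes 31 rose, with a median of 0.43, and 26 rose relative to the mRNAs. REV3 led them with 2.25, before RAD59, of single-strand annealing, with 1.81 and SLX1, a structure-specific nuclease, with 1.62. Of 42 kinetochore and spindle checkpoint genes 21 rose, with a median of 0.30, and 17 rose relative to the mRNAs. SPC24 and SPC25, partners in the Ndc80 complex, had log2 fold changes of 2.33 and 1.96, and NSL1, of the MIND complex, 1.83. SPC24 had 1.30 ± 0.248 in upf1 and 0.247 ± 0.0625 in WT libraries.

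Splicing factors and autophagy genes were raised in similar shares. Of 70 splicing factors 37 rose, with a median of 0.46, and 34 rose relative to the mRNAs, with a median of 0.19. SNU23, of the tri-snRNP, had 0.684, 0.716, 1.05 and 0.781 in upf1 replicates 1 to 4, against 0.194, 0.165, 0.129 and 0.212 in WT replicates 1 to 4, with no overlap and a log2 fold change of 2.08. SLU7, which acts in the second step of splicing, had 1.89, and SMX3, an Sm protein, 1.82. Of 33 autophagy genes 21 rose, with a median of 0.37, and 12 rose relative to the mRNAs. ATG10, the conjugating enzyme for Atg12, had 2.06, ATG12 itself 2.02 and ATG42, a vacuolar carboxypeptidase, 1.84.

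The machinery of gene expression and of RNA decay showed few rises under the deposited scaling. None of 12 deadenylation genes was called by limma in either direction. At an unadjusted p under 0.05, and by voom, 1 of them was higher. A single one was higher without upf1 replicate 2 or WT replicate 1, and a single one was lower without upf1 replicate 3. None of 28 nuclear pore genes was called by limma (0 at an unadjusted p under 0.05, 0 by voom), though 23 were lower relative to the mRNAs. That count was 15 in a fit of the 8 libraries alone, and 13 when the mRNA factors came from those too. Of 27 translation initiation factors 1 rose, GCD7, a subunit of eIF2B, with 1.24, and 21 were lower relative to the mRNAs. Of 12 elongation and termination factors 1 rose, ANB1, a form of eIF5A, with 1.73, and 10 were lower relative to the mRNAs. Of 19 cytosolic aminoacyl-tRNA synthetases 1 rose, VAS1, with 0.72, and 18 were lower relative to the mRNAs. These lower calls are small in size, with a median of −0.32 over the initiation factors relative to the mRNAs. The initiation factors, elongation and termination factors and synthetases had medians of 1962, 13303 and 5164 reads a library, against 420 over the tested mRNAs. In the highest class of mRNAs by level, 20.5% were higher under the deposited scaling and 51.0% lower relative to the mRNAs. No list was compared at matched level. In replicates 3 and 4 alone 6 nuclear pore genes and 6 elongation and termination factors were lower on that scale.

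Of the 6 NMD factors 4 rose while NAM7 fell, with NMD4, a partner of Upf1, at 1.59 and the casein kinase HRR25 at 1.5. Other lists of RNA decay and transcription held few members with a call under the deposited scaling. Of 14 no-go and non-stop decay genes 3 rose, led by the endonuclease CUE2 at 1.77, and of 19 decapping and 5′ decay genes 3 rose, led by DCP1, a subunit of the decapping enzyme, at 0.65. Of 24 termination and polyadenylation genes 3 rose, led by YTH1, of the cleavage factor, at 1.76. That count was 5 without upf1 replicate 1 and 1 without upf1 replicate 4 or WT replicate 2, and YTH1 was called in each of these. A single member of the 21 exosome, Ski and TRAMP genes was higher, and none was without upf1 replicate 3 or 4 or without WT replicate 1, 2 or 3. Of 30 RNA polymerase subunits 2 were higher, and this was 4 without upf1 replicate 1 or 2, 1 without upf1 replicate 3 or 4 or WT replicate 1, and 0 without WT replicate 2. With the replicate number as a block the counts were 5 termination and polyadenylation genes, 0 exosome, Ski and TRAMP genes and 4 RNA polymerase subunits. Relative to the mRNAs, where 31.0% of all tested mRNAs were lower, these lists held more lower calls. Lower were 12 decapping and 5′ decay genes, 10 exosome, Ski and TRAMP genes and 15 RNA polymerase subunits. So were 10 termination and polyadenylation, 6 no-go and non-stop decay and 5 deadenylation genes. In replicates 3 and 4 alone there were 6 decapping, 2 exosome, 4 termination, 2 no-go and 1 deadenylation genes lower.

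Metabolic and organelle lists lay mostly below the mRNA background. Of 74 mitochondrial ribosomal proteins 9 rose, with a median of 0.18 and MRPL11 first at 0.67, and the count was 5 in the 8 libraries alone and 4 in replicates 1 and 2 alone. Of 30 tested mitochondrial import genes 4 rose, with TIM22 at 1.03 and SAM37 at 0.95. Of 23 tested peroxisome biogenesis genes 6 rose, with PEX17 at 0.97. Of 22 ergosterol genes 5 rose, with ERG8, the phosphomevalonate kinase, at 1.45 and ERG7, the lanosterol synthase, at 1.31, while 13 were lower relative to the mRNAs. Of 18 vacuolar ATPase genes 4 rose, with the assembly factor VMA21 at 1.10, and 13 were lower relative to the mRNAs. In replicates 3 and 4 alone these lower counts were 4 and 3. Of 15 phosphate regulon genes 5 rose, with PHM7 at 0.93, and 3 rose in replicates 1 and 2 alone. Of 17 genes of zinc, copper and magnesium transport 7 rose, with the magnesium transporter ALR1 at 1.80 and the copper-responsive factor MAC1 at 1.11.

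Genes whose S. cerevisiae relatives carry a known NMD feature were mixed. Of 11 genes with upstream reading frames 4 rose (36.4%), close to the 36.2% of all tested mRNAs. CPA1, a subunit of carbamoyl phosphate synthetase, with 7.02 ± 0.788 in upf1 and 2.26 ± 0.163 in WT libraries (SD, n = 4 each) had a log2 fold change of 1.62, RCK1 had 1.13, and GCN4, the activator of amino acid synthesis, 1.12. Relative to the mRNAs 3 rose (27.3%, against 24.5% of all tested mRNAs) and 6 were lower, or 3 in replicates 3 and 4 alone. Both genes with a programmed frameshift rose under the deposited scaling, EST3 by 2.17 and OAZ1, the ornithine decarboxylase antizyme, by 0.34, though OAZ1 had 0.05 with no call relative to the mRNAs and was called lower, at −0.16, with median-centred libraries. OAZ1 also had no call in replicates 1 and 2 alone (0.21) or by voom on the recovered reads (0.35). Whether these features are kept in N. castellii was not tested.

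**Figure D5:**
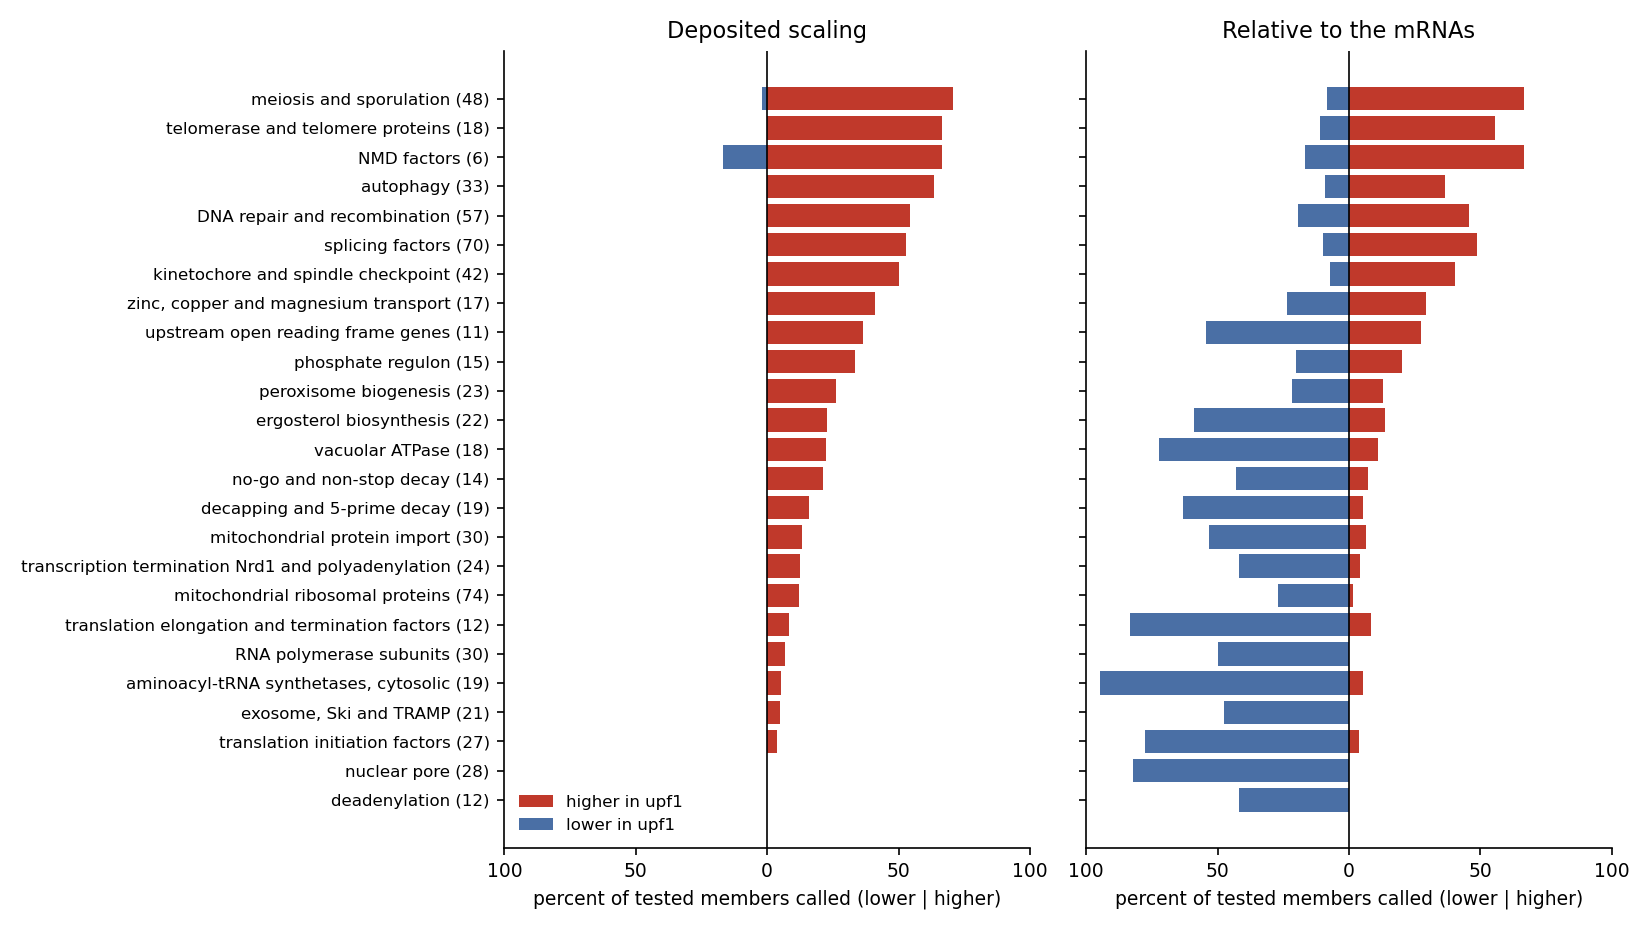
Percent of the tested members of each gene list with at least 6 tested members called higher (red, to the right) or lower (blue, to the left) in upf1, under the deposited scaling (left panel) and relative to the mRNAs (right panel), with the number tested in brackets. Meiosis and sporulation, telomere, NMD factor, autophagy, DNA repair and splicing lists have the highest shares of rises under the deposited scaling, and nuclear pore and aminoacyl-tRNA synthetase genes are mostly called lower relative to the mRNAs.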

How the data were processed

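Groups come from the sample titles. Per the labels, spike-in RNA was added, ribosomal RNA was depleted and libraries were stranded. DESeq2, featureCounts 2.0.0, HISAT2 2.2.0 and Trim Galore were used per the submitters' processing notes, which give no order of steps. The deposited signal, a normalised read density, was checked on its values: multiplied by the feature length, all values were whole multiples of a single step per library within 0.001 reads. Recomputed from the 37 snoRNAs, size factors came within 0.0315 (log2) of those deposited, so the scaling on snoRNAs is inferred. The spike-in was not analysed here.

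All 14 libraries entered a single model with 5 group means in limma 3.58.1 with statmod 1.5.0 under R 4.3.3 (eBayes with trend and robust), with 9 residual degrees of freedom and, in the median, 7.69 from the prior, or 2.90 relative to the mRNAs. Length bins, gene lists and the naming rule were chosen with earlier results of these data known. The rule takes, among features called and not overlapping under both scalings with a mean in the higher group of at least the class median, the 3 largest rises and 2 largest falls per mRNA length bin and per other class, and up to 3 called members of each list. RefSeq's gene table matched 5588 of 5599 mRNAs and gave 4484 a symbol. Same-strand overlap with an mRNA was found for 0 of the 2390 CUTs, XUTs and SUTs.

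Deviations of upf1 and WT libraries with the same number from their group means correlated at 0.365, 0.432, 0.209 and 0.354. Other numbers correlated as well within replicates 1 and 2 (0.396 and 0.400) and within 3 and 4 (0.489 and 0.264), so the number alone does not pair the libraries. The main fit has no term for the replicate number or for these sets. The numbers from the titles served as a pairing only in the fit with the replicate block. Alternatives were other pseudocounts and filters, the 8 libraries alone, the replicate block, replicates 1 and 2 or 3 and 4 alone, leaving out each library, and other scalings. Voom on the recovered reads and a fit of the 8 libraries with mRNA factors over them were added after the data were seen. The procedure was tested on simulated data.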

Additional observations from a re-analysis of the deposited data

Results flagged for a closer look

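In 218 groups of 4 libraries, the named features and the class shares were searched for a library that stood apart from the other 3, by a gap to the nearest that exceeds Dixon's critical value as a share of the group's range. Chance flags about 1 in 20 groups, and 8 were found. Of these, 5 were upf1 replicate 3. There, EST2 had a density of 0.590 (0.454 to 0.465 in the other upf1 libraries), ATG12 had 0.907 (0.650 to 0.655) and ATG42 had 1.11 (0.946 to 0.961). In the same library CUTs took 0.496% of reads (0.462% to 0.465% in the others) and snoRNAs 6.37% (6.84% to 6.91%). In WT replicate 1, EST2 had 0.117 (0.0917 to 0.0949 in the other WT libraries) and ICT1 had 1.02 (0.744 to 0.768). In WT replicate 3, CUT0325 had a density of 0 (0.0050 to 0.00585 in the others), which is 0 reads against 3 to 4. All of these features kept their call without the library in question, and the cause was not tested.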

How the results depend on the processing

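Under the deposited scaling no named feature changed direction. Relative to the mRNAs 13 features taken by the naming rule did so under some alternative (21 values, mostly with median-centred libraries); their size there was at most 0.20, 1 of them had a call, and apart from OAZ1 their values on that scale were left out of the text after this was seen. Features lower under the deposited scaling numbered 44 and ranged over 30 to 73 with a library left out, were 22 in the 8 libraries alone, 85 with the replicate block, and 330 and 70 in replicates 1 and 2 and replicates 3 and 4. Lower mRNAs, 36, ranged over 19 to 60, and were 20, 55, 269 and 17 in the same order. With the block 3 SUTs were lower, against 0, and 1 feature was at least 2-fold lower, against 2; 2852 features and 1936 mRNAs were higher.

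With a mean density of at least 0.1, 154 XUTs and 129 CUTs were higher under the deposited scaling and 145 and 119 relative to the mRNAs, where 1465 features in all were higher; fewer features are tested there. Relative to the mRNAs, replicates 3 and 4 alone gave 306 XUTs and 231 CUTs higher and 907 features and 829 mRNAs lower, fewer samples being fitted. Lower features and mRNAs were 3426 and 3185 with median-centred libraries and 998 and 949 in a fit of the 8 libraries alone with mRNA factors over them.

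The long minus short difference in mRNAs was −0.12 under both scalings in replicates 1 and 2 alone. In XUTs it was 0.32 and 0.31 with a pseudocount of 0.1, 0.68 and 0.64 with no filter, 0.79 and 0.86 with a mean density of at least 0.1 (deposited scaling first), and 0.67 relative to the mRNAs by voom. In CUTs under the deposited scaling it was 0.37 and 0.21 with pseudocounts of 0.005 and 0.1, 0.40 with no filter, 0.0808 with a mean density of at least 0.1, 0.40 in the 8 libraries alone, with or without the replicate block, 0.37 and 0.38 in replicates 1 and 2 and replicates 3 and 4, and 0.32 to 0.47 with a library left out. Relative to the mRNAs the CUT values were 0.18 with a pseudocount of 0.1, 0.0902 with a mean density of at least 0.1, 0.31 in replicates 1 and 2, 0.43 by voom, and 0.27 to 0.41 with a library left out. The cause was not tested.

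edgeR's quasi-likelihood test and its TMM scaling were not run, since the deposited values are densities; voom replaced them. tRNAs and the XUTs and CUTs under 600 nt had medians under 12 reads a library.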
